A study of Caenorhabditis elegans with 6 samples.

Results

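Heterochronic genes are the developmental timers of the nematode Caenorhabditis elegans. The 8 members described here, lin-14, lin-28, hbl-1, lin-46, lin-41, lin-29, lin-42 and daf-12, were picked by name from the 19512 genes of the count table. The rule for membership uses no measured value, but the set was drawn up with earlier results of these data known. They were read in 6 whole-worm cultures of the wild-type strain N2. Of these, 3 were labelled elt-2 RNAi (bacteria making double-stranded RNA against elt-2, the GATA factor of the intestine) and 3 control (the same feeding with an empty vector). Each label carries a letter from A to C, and values are given in the order of the letters. About 10000 synchronised L1 larvae were fed for about 28 hours in each culture and, by the study's methods, were washed off once they had reached L4, so the time is approximate. Each library is a pool of whole animals. Feeding reduces a transcript and does not delete the gene.

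Heterochronic genes tell a larva which stage's program to run, above all in the seam cells, the stem-like cells of the epidermis. Early-acting members are switched off by the microRNAs lin-4 and let-7 and their relatives, late-acting members then end the larval program, and the epidermis stops molting and makes an adult cuticle. Several members are controlled at translation or at the protein, so a transcript level need not follow the activity of the gene. The question asked of these data was whether the 6 cultures differed in larval timing.

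The targeted gene went against its labels. elt-2 had 689, 111 and 3070 counts in libraries with the elt-2 RNAi label, against 233, 48 and 78 counts in those with the control label. Its log2 fold change, elt-2 RNAi over control, was 4.60 (SE 1.16, edgeR quasi-likelihood test, adjusted p = 0.0395), 2.80 (adjusted p = 0.135) without elt-2 RNAi C and 4.70 (adjusted p = 0.103) without control A. Each group below is therefore the set of libraries with that label. Libraries labelled elt-2 RNAi held 29578175 to 35047530 counts and those labelled control 16568515 to 24168901. The factors of the trimmed mean of M-values (TMM), which rescale library size, were 0.492 to 0.698 in elt-2 RNAi and 0.975 to 3.45 in control. With library size alone the tested genes had a median log2 fold change of -1.76, against -0.12 with TMM, so directions below hold for TMM unless the other scale is named. Levels are counts per 1000000 (CPM) of the TMM-scaled library size. Libraries were made from the 3′ ends of poly-A RNA, so that a transcript gives reads from its end whatever its length, and in bulk RNA fewer cells of a type and less RNA per cell cannot be told apart.

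Of the 8 genes, 4 had enough counts in enough libraries for the test across genes, and none of them passed it. This was 0 of 4 tested, lin-28, lin-41, lin-29 and daf-12, at an adjusted p under 0.10, where 28.9% of all 11474 tested genes were called. At an unadjusted p under 0.05 the number was 1 (lin-41), and DESeq2 called 1, also lin-41, where it called 18.7% of tested genes higher. The other 4 members, lin-14, hbl-1, lin-42 and lin-46, did not pass the filter on low counts. The most uneven member was hbl-1, which was read almost entirely in the libraries labelled control A and control B.

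**Figure D1:**
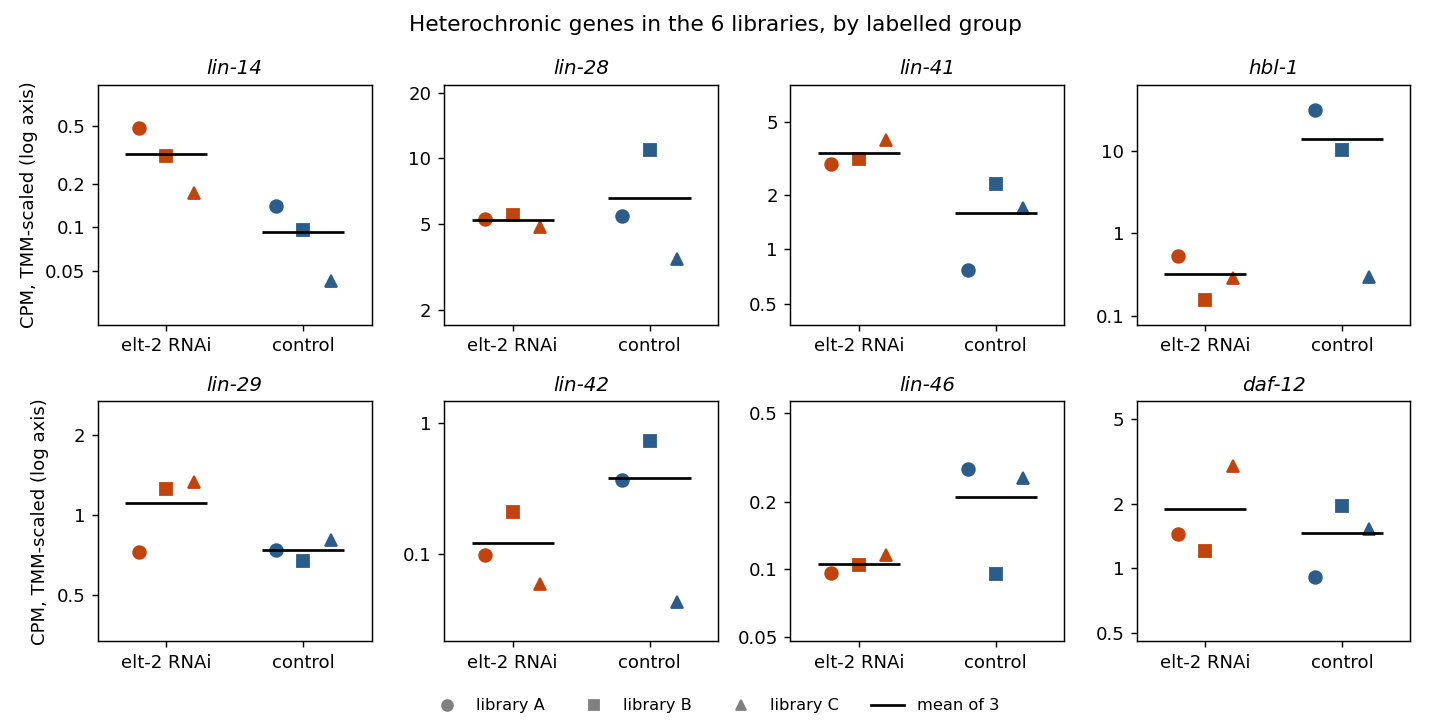
Level of each of the 8 heterochronic genes in each library (CPM of the TMM-scaled library size, log axes that differ between panels), with the 3 libraries labelled elt-2 RNAi left of the 3 labelled control, symbols for the letters A to C, and a line at the mean of each group. For hbl-1 the control libraries run over 106-fold, with control C at 0.297 CPM among the elt-2 RNAi libraries, while lin-29 stays between 0.670 and 1.34 CPM in all 6.

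hbl-1 (F13D11.2) encodes a zinc finger protein of the hunchback family that holds the epidermis in its early larval programs and is a target of let-7 family microRNAs. It lies on chromosome X, 5822142 to 5827755, plus strand (WBcel235, as for all coordinates here). It had 11, 3 and 5 counts in the elt-2 RNAi libraries, against 1802, 320 and 7 counts in the control libraries. In CPM these were 0.533, 0.157 and 0.290 in the elt-2 RNAi libraries, against 31.5, 10.2 and 0.297 in the control libraries. Control A and B stood far above the other 4 libraries, and control C lay inside the elt-2 RNAi range, so the groups overlapped. The means were 0.327 ± 0.190 CPM in elt-2 RNAi and 14.02 ± 15.97 CPM in control (SD, n = 3 each), and a two-sided exact permutation test on log2(CPM + 0.5) gave p = 0.2, where the smallest p that 3 against 3 allows is 0.1.

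hbl-1 passed the filter in each of the 6 fits that left out 1 library. Its log2 fold change there lay between -5.86 and -4.03, and its adjusted p between 0.00499 and 0.171. It was called lower in 2 of the 6, without control C (-5.86, SE 0.71, adjusted p = 0.00499, where 18.3% of tested genes were called lower) and without control B (-5.64, adjusted p = 0.0653, where 14.2% were). Without control C it passed the filter through the counts of control A and B, the libraries in which it was high. Without control B the only control library with high hbl-1 was control A, at 1802 counts, against 7 in control C. These calls therefore lend no support. The call without control C also lacks the control library in which hbl-1 was low. With no filter on low counts the log2 fold change was -5.31 (SE 1.22, adjusted p = 0.0264, where 9.65% were called lower).

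lin-28 (F02E9.2) encodes an RNA-binding protein that promotes early larval fates and blocks the maturation of let-7. It lies on chromosome I, 8407630 to 8410804, minus strand, and overlaps F02E9.1 on the other strand. It had 109, 105 and 83 counts in the elt-2 RNAi libraries, against 312, 341 and 81 in the control libraries. Its levels were 5.28, 5.49 and 4.82 CPM in the elt-2 RNAi libraries, against 5.46, 10.9 and 3.44 CPM in the control libraries. The elt-2 RNAi libraries were close together, and the control libraries fell on both sides of them. The log2 fold change was -0.34 (SE 0.45, 95% interval -1.23 to 0.54, adjusted p = 0.591, exact permutation p = 0.8). With library size alone lin-28 was called lower (log2 fold change -1.95, adjusted p = 0.0631), as were 52.3% of tested genes on that scale. Use of strand in the counting is not given in the sources used here, and F02E9.1 itself had a log2 fold change of -0.15 (adjusted p = 0.772).

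lin-14 (T25C12.1, chromosome X, 11465560 to 11485871, plus strand) encodes the nuclear factor of the first larval stage that lin-4 switches off. It had 10, 6 and 3 counts in the elt-2 RNAi libraries, against 8, 3 and 1 in the control libraries. In CPM it had 0.484, 0.314 and 0.174 in the elt-2 RNAi libraries, against 0.140, 0.0957 and 0.0424 in the control libraries. The elt-2 RNAi libraries were all higher than the control libraries, which held for 22.5% of tested genes, but with library size alone the groups overlapped. The exact permutation p was 0.1, the smallest possible.

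lin-46 (R186.4, chromosome V, 12968855 to 12970730, plus strand) encodes a gephyrin-like protein that acts downstream of lin-28 and restrains HBL-1. It had 2, 2 and 2 counts in the elt-2 RNAi libraries, against 16, 3 and 6 in the control libraries. All elt-2 RNAi libraries were at or under the floor of 3 counts used here. The levels were 0.0968, 0.105 and 0.116 CPM in the elt-2 RNAi libraries, against 0.280, 0.0957 and 0.255 CPM in the control libraries, and control B was lowest of all 6 (exact permutation p = 0.4). With library size alone the elt-2 RNAi libraries were all lower, at 0.0571 to 0.0676 CPM, against 0.130 to 0.966 CPM in the control libraries. On that scale 52.3% of tested genes were called lower by edgeR, and the share of genes with no overlap was not counted.

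lin-41 (C12C8.3) encodes a TRIM-NHL RNA-binding protein, a let-7 target that holds back LIN-29 until the last larval stage. It lies on chromosome I, 9334800 to 9342496, minus strand. It had 61, 60 and 69 counts in the elt-2 RNAi libraries, against 44, 72 and 40 in the control libraries. These were 2.95, 3.14 and 4.01 CPM in the elt-2 RNAi libraries, against 0.770, 2.30 and 1.70 CPM in the control libraries. All elt-2 RNAi libraries were above all control libraries on this scale, as for 22.5% of tested genes. The groups overlapped with library size alone, where the log2 fold change was -0.30. With TMM it was 1.09 (SE 0.47, 95% interval 0.16 to 2.02, adjusted p = 0.136, unadjusted p = 0.0493, exact permutation p = 0.1). DESeq2 gave 1.18 (adjusted p = 0.0967). lin-41 also has a role in oocytes, and the germline is part of these samples.

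lin-29 (W03C9.4) encodes the zinc finger factor that carries out the switch of seam cells to adult fate. It lies on chromosome II, 11917642 to 11935343, minus strand, and overlaps hmg-12 on the other strand. It had 15, 24 and 23 counts in the elt-2 RNAi libraries, against 42, 21 and 19 in the control libraries. The levels were 0.726, 1.26 and 1.34 CPM in the elt-2 RNAi libraries, against 0.735, 0.670 and 0.806 CPM in the control libraries. elt-2 RNAi A lay within the control range and the other elt-2 RNAi libraries above it. The log2 fold change was 0.58 (SE 0.46, 95% interval -0.32 to 1.48, adjusted p = 0.373, exact permutation p = 0.3), and -1.10 with library size alone. hmg-12, read far more deeply, had a log2 fold change of 0.79 (adjusted p = 0.324).

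lin-42 (F47F6.1) is the worm relative of Period, the clock gene of flies and mammals, and its transcript is known to cycle with the molts. It lies on chromosome II, 1233236 to 1252359, minus strand, where 7 transcripts with 4 separate 3′ ends are annotated. It had 2, 4 and 1 counts in the elt-2 RNAi libraries, against 21, 23 and 1 in the control libraries. These were 0.0968, 0.209 and 0.0580 CPM in the elt-2 RNAi libraries, against 0.368, 0.734 and 0.0424 CPM in the control libraries. As for hbl-1, control A and B were the highest, while control C, with 1 count, was the lowest of all 6. The exact permutation p was 0.4. In the 4 fits without 1 library in which lin-42 passed the filter, its log2 fold change lay between -2.14 and -1.24 and its adjusted p between 0.101 and 0.523.

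daf-12 (F11A1.3, chromosome X, 10635908 to 10666875, plus strand) encodes the steroid hormone receptor that ties stage progression to the choice between growth and dauer arrest. It had 30, 23 and 52 counts in the elt-2 RNAi libraries, against 52, 61 and 36 in the control libraries. Its levels were 1.45, 1.20 and 3.02 CPM in the elt-2 RNAi libraries, against 0.910, 1.95 and 1.53 CPM in the control libraries. The groups overlapped. With library size alone the elt-2 RNAi libraries were all lower, at 1.01, 0.765 and 1.48 CPM, against 3.14, 2.65 and 1.49 CPM in the control libraries, the nearest values being 1.48 and 1.49. Of all tested genes, 52.3% were called lower by edgeR on that scale, and daf-12 was not (adjusted p = 0.244). The share of genes with no overlap on that scale was not counted. The TMM-scaled log2 fold change was 0.37 (SE 0.52, 95% interval -0.64 to 1.38, adjusted p = 0.611, exact permutation p = 0.7), and its sign turned in 4 of the alternative fits.

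Ordered by mean level, the elt-2 RNAi libraries ran lin-28, lin-41, daf-12, lin-29, hbl-1, lin-14, lin-42 and lin-46. Among neighbours in that order, the lowest value of lin-28 was above the highest of lin-41, and likewise for lin-29 and hbl-1. The ranges of the other neighbours overlapped. The control libraries ran hbl-1, lin-28, lin-41, daf-12, lin-29, lin-42, lin-46 and lin-14. There the ranges of lin-28 and lin-41, and of daf-12 and lin-29, were apart. hbl-1 was first by its mean only, since in control C its 7 counts put it under lin-28, lin-41, lin-29 and daf-12.

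Ratios of counts within a library need no scaling between libraries. Those between some of the members, chosen after the values were seen and given as a description, ran as follows. lin-28 over lin-41 was 1.79, 1.75 and 1.20 in the elt-2 RNAi libraries, against 7.09, 4.74 and 2.03 in the control libraries. hbl-1 over lin-29 was 0.733, 0.125 and 0.217 in the elt-2 RNAi libraries, against 42.9, 15.2 and 0.368 in the control libraries. lin-42 over lin-29 was 0.133, 0.167 and 0.0435 in the elt-2 RNAi libraries, against 0.5, 1.10 and 0.0526 in the control libraries. In these 3 ratios control A and B were highest, and control C was the control library nearest to the elt-2 RNAi range. lin-28 over lin-29 was 7.27, 4.38 and 3.61 in the elt-2 RNAi libraries, against 7.43, 16.2 and 4.26 in the control libraries, with control C inside the elt-2 RNAi range. hbl-1 over lin-41 was 0.180, 0.05 and 0.0725 in the elt-2 RNAi libraries, against 40.95, 4.44 and 0.175 in the control libraries. Of these 5 ratios the groups were apart for lin-28 over lin-41 only.

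**Figure D2:**
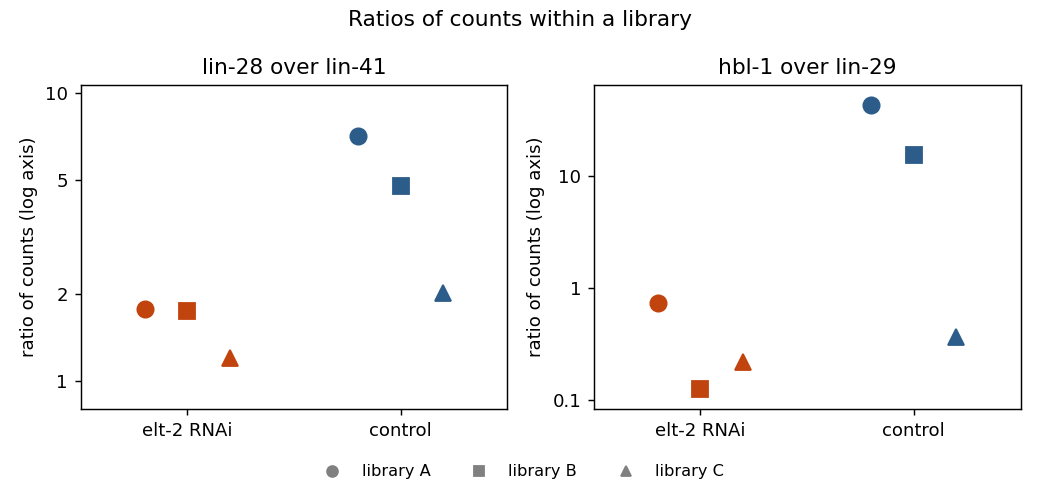
Ratio of counts of lin-28 over lin-41 (left panel) and of hbl-1 over lin-29 (right panel) in each library on log axes, with the libraries labelled elt-2 RNAi left of those labelled control and a symbol for each letter. Control A and B are the highest in both panels, and control C, at 2.03 and 0.368, is the closest control library to the elt-2 RNAi libraries.

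Of 20 further genes of the pathway (the microRNA machinery, regulators of lin-28 and lin-29 and the hormone branch of daf-12), 16 were tested. Of these, 4 were called lower and 1 higher, which is 5 of 16 against 28.9% of all tested genes, and their median log2 fold change was -0.69 against -0.12 over all genes. The genes called lower included 3 of the microRNA machinery, drsh-1 (Drosha, which cuts the primary microRNA, -1.40, adjusted p = 0.0461), ain-1 (a GW182 protein of the silencing complex, -1.52, adjusted p = 0.0769) and nhl-2 (a TRIM-NHL cofactor of that complex, -1.79, adjusted p = 0.0870). nhl-2, with 35, 10 and 12 counts in elt-2 RNAi, passed the filter through the control libraries, where it was high. Its call therefore lends no support to the direction. Other tested genes of the microRNA machinery, dcr-1 and ain-2 among them, were not called. The remaining gene called lower was dre-1, an F-box protein of the heterochronic pathway (-1.84, adjusted p = 0.0687). drsh-1 had 1.36, 1.62 and 2.03 CPM in the elt-2 RNAi libraries, against 5.20, 3.22 and 4.84 CPM in the control libraries, with no overlap. The share of all genes with no overlap in this direction was not counted.

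lep-2, a Makorin that restrains lin-28, rose in the elt-2 RNAi libraries. It had 7.02, 5.13 and 8.18 CPM in the elt-2 RNAi libraries, against 0.630, 0.798 and 1.95 CPM in the control libraries. Its log2 fold change was 2.61 (SE 0.51, adjusted p = 0.0206). Here control C was the highest control library and still below every elt-2 RNAi library, a separation seen for 22.5% of tested genes. Of the most abundant partners, ain-2 (-0.07), lin-66 (-0.66), din-1 (-0.27), dcr-1 (-0.57) and sea-2 (-0.89) did not pass the test (edgeR adjusted p 0.138 to 0.910). All 5 calls were lost without elt-2 RNAi C, and 2, 1 and 2 genes were called without elt-2 RNAi A, elt-2 RNAi B and control A.

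**Figure D3:**
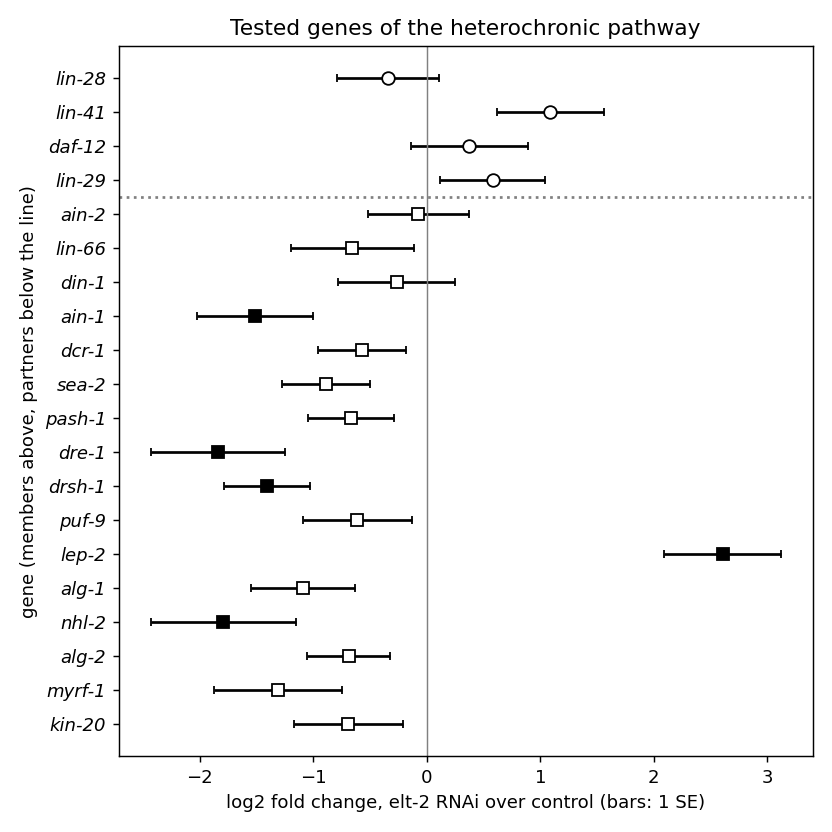
Fitted log2 fold change, elt-2 RNAi over control, with bars of 1 SE, for the 4 tested heterochronic genes (circles, above the dotted line) and 16 tested pathway partners (squares, below it), filled where the edgeR adjusted p was under 0.10. No circle is filled, and of the 5 filled squares lep-2 lies at 2.61 and the others between -1.84 and -1.40.

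The output of the timers was read first from col-19, the cuticle collagen that LIN-29 turns on at the switch to adulthood. It had 250263, 178151 and 256054 counts in the elt-2 RNAi libraries, against 6997, 19572 and 205249 counts in the control libraries. In CPM it had 12117, 9318 and 14863 in the elt-2 RNAi libraries, against 122, 625 and 8711 in the control libraries. Control C was close to the elt-2 RNAi libraries, and control A and B were far below, the opposite of hbl-1. The log2 fold change was 1.94 (SE 1.36, adjusted p = 0.314), and 5.11 (SE 1.17, adjusted p = 0.0253) without control C, where 33.3% of tested genes were called. That fit lacks the control library in which col-19 was high, so its call lends no support. Without any other single library the log2 fold change was 1.20 to 2.14 (adjusted p 0.388 to 0.534).

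**Figure D4:**
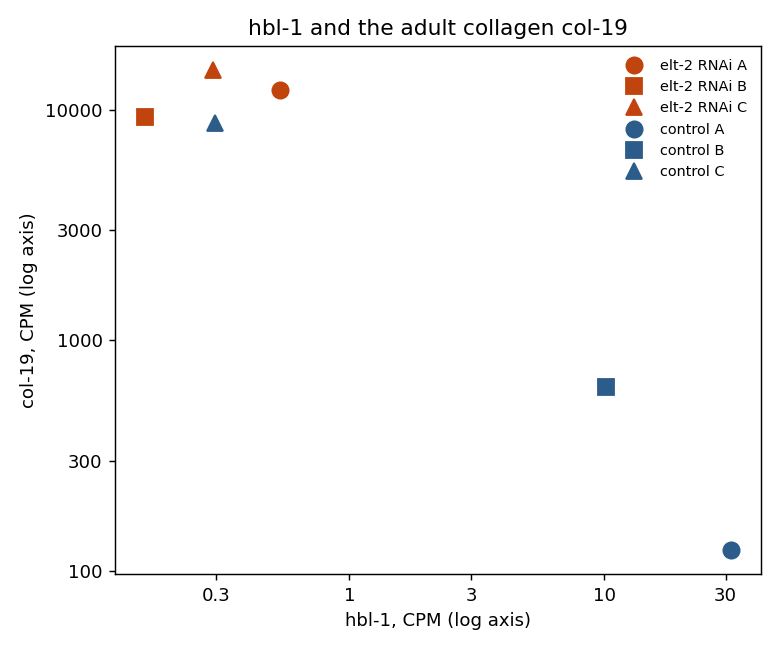
Level of the adult collagen gene col-19 against that of hbl-1 in each library (CPM of the TMM-scaled library size, log axes), with color for the labelled group and a symbol for each letter. Control A and B lie at high hbl-1 (31.5 and 10.2 CPM) and low col-19 (122 and 625 CPM), and control C lies with the 3 elt-2 RNAi libraries at hbl-1 under 1 CPM.

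Of the 7 pathway readouts 5 were tested and none was called by edgeR. None had an unadjusted p under 0.05, and DESeq2 called 1, col-17, where it called 18.7% of tested genes higher. col-17 passed the filter through the elt-2 RNAi libraries, where it was high, so that call lends no support. This collagen gene had 0.823, 1.41 and 1.28 CPM in the elt-2 RNAi libraries, against 0.0700, 0.0638 and 0.764 CPM in the control libraries (log2 fold change 2.06, edgeR adjusted p = 0.150, 4.14 with adjusted p = 0.0108 without control C, and an adjusted p of 0.211 to 0.376 without any other single library). As for col-19, control A and B were far below the other libraries, and the fit without control C lacks the control library in which col-17 was high. The others were apl-1, the amyloid precursor relative expressed in seam cells (-0.72), the insulin-like gene ins-33 (1.08) and the male differentiation factor mab-3 (-1.60), with edgeR adjusted p of 0.166 to 0.352. mab-10, the LIN-29 cofactor, and dmd-3 were not tested.

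Of 4 genes of the adult cuticle, which include col-19, 3 were tested and none was called by edgeR, at an unadjusted p under 0.05, or by DESeq2. bli-2, a collagen of the struts of the adult cuticle, had 5.33, 6.38 and 7.89 CPM in the elt-2 RNAi libraries, against 0.280, 1.24 and 7.05 CPM in the control libraries. bli-1, its partner in the struts, had 0.920, 0.471 and 0.813 CPM in the elt-2 RNAi libraries, against 0.0350, 0.160 and 0.509 CPM in the control libraries. In both, control C lay within the elt-2 RNAi range. In the fits that left out 1 library, all 3 were called higher without control C (bli-2 at 3.22, adjusted p = 0.0207, and bli-1 at 3.08, adjusted p = 0.0452), and 0 were called in each of the other 5. Without control C, 1930 of 12886 tested genes were called higher. That fit lacks the control library in which these genes were highest, so the calls lend no support. col-7 had 1, 5 and 2 counts in the elt-2 RNAi libraries and 0 in each control library.

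The molting cycle, which the timers end at adulthood, gave the most calls in one direction of the lists read here. Of 20 genes that make, shed or regulate the cuticle at each molt, 12 were tested, 8 were called lower and none higher, where 15.9% of all tested genes were called lower. The median log2 fold change was -2.15. noah-1 and noah-2, proteins of the apical extracellular matrix of the epidermis, were at -5.68 (adjusted p = 0.0228) and -4.67 (adjusted p = 0.0280), the furrow collagen gene dpy-10 at -4.27 (adjusted p = 0.0436) and bed-3, a zinc finger regulator of molting, at -5.10 (adjusted p = 0.0234). The others were lrp-1 (-1.97, adjusted p = 0.0314), nhr-23 (the ROR-type receptor that drives the molts, -1.46, adjusted p = 0.0722), qua-1 (-2.43, adjusted p = 0.0806) and mlt-10 (-2.03, adjusted p = 0.0911). noah-1 (6, 10 and 8 counts in elt-2 RNAi) and bed-3 (2, 2 and 1 counts) passed the filter through the control libraries, where they were high. Their calls therefore lend no support to the direction.

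The control libraries did not share this pattern. dpy-10 had 1.79, 1.26 and 1.57 CPM in the elt-2 RNAi libraries, against 43.4, 44.5 and 1.06 CPM in the control libraries. noah-1 had 0.291, 0.523 and 0.464 CPM in the elt-2 RNAi libraries, against 45.7, 18.7 and 1.36 CPM in the control libraries. Summed over the list, the level was 18.98, 19.7 and 20.5 CPM in the elt-2 RNAi libraries, against 270, 213 and 23.3 CPM in the control libraries. Control A and B thus stood apart from the other 4 libraries, whose sums lay within a narrow range.

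Gene by gene, of the 19 molting genes with at least 10 counts in 1 library, 18 were above all 3 elt-2 RNAi libraries in control A, 17 in control B and 7 in control C. Over the 14018 genes read that deeply, the shares were 48.4%, 41.8% and 34.5%. mlt-11, dpy-7, mlt-9, ptr-4, nhr-25 and ptr-18 reached 10 counts in control A and B only. Their place above the elt-2 RNAi libraries there lends no support to the direction. In control C, 7 molting genes were also below all elt-2 RNAi libraries. Without control C, 19 were tested and 16 called lower (18.3% of tested genes were), with a median of -3.16. The genes added to the test there passed the filter through control A and B, where they were high, so that this count lends no support to the direction. The number called was 4 without elt-2 RNAi A, elt-2 RNAi B or control A in turn, and 0 without elt-2 RNAi C, where 465 genes in all were called.

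**Figure D5:**
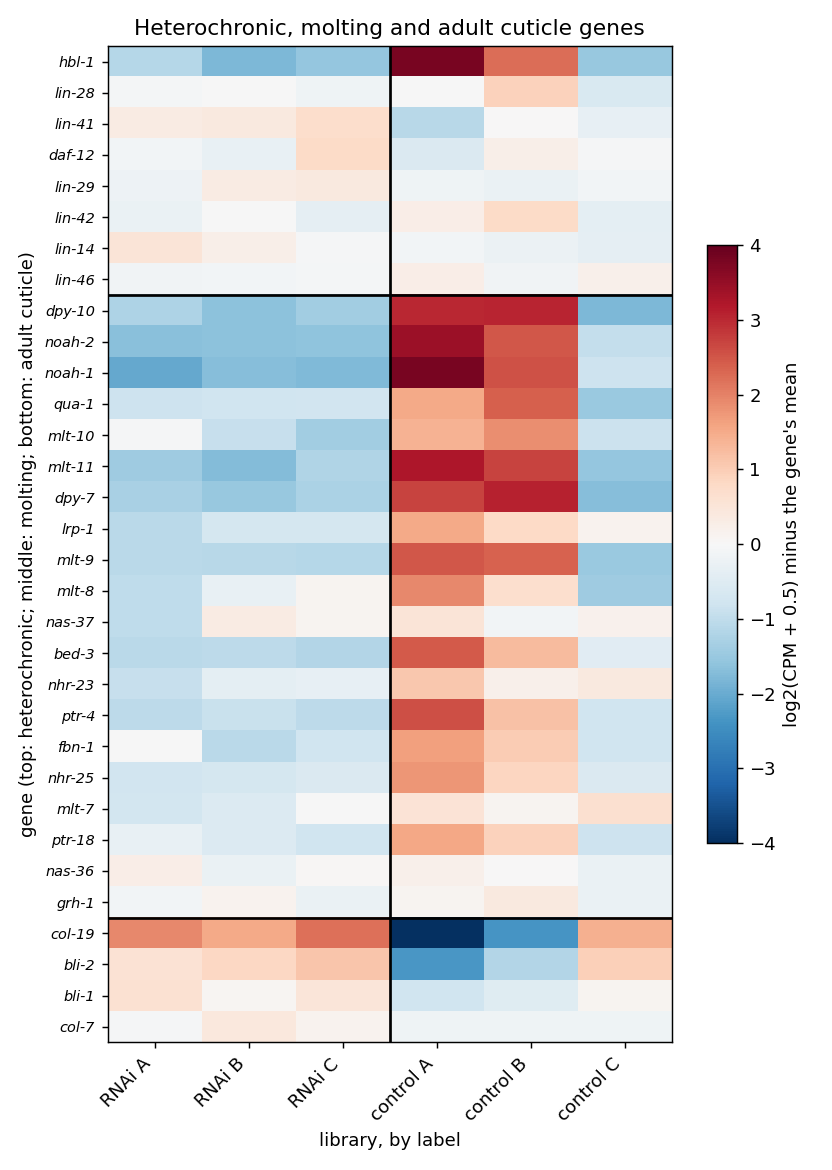
Heat map of log2(CPM + 0.5) minus the mean of each gene over the 6 libraries (color scale) for the 8 heterochronic genes (top), 20 molting genes (middle) and 4 adult cuticle genes (bottom), with the libraries labelled elt-2 RNAi left of those labelled control. The median molting gene lies at -1.01, -0.89 and -0.80 in the elt-2 RNAi libraries, and at 1.77, 1.18 and -0.83 in the control libraries.

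Among these stage-linked transcripts, hbl-1, the summed molting genes and col-19 set control A and B apart from the other 4 libraries. Control C lay within the elt-2 RNAi range for hbl-1 and just under it for col-19. Its molting genes were mixed, with 7 above every elt-2 RNAi library, noah-1, noah-2, lrp-1, bed-3 and nhr-23 among them, and 7 below, dpy-10 and qua-1 among them. Other values separated by label, control C included, among them lep-2, drsh-1 and the ratio of lin-28 to lin-41. The sample titles give L4 for every culture. Finer staging within L4 was not recorded in the sources used here, so larval age itself was not measured.

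Sperm and oocyte genes come on in sequence as the hermaphrodite germline matures. Of 16 tested sperm rows 6 were called higher and 1 lower (try-5), where 28.9% of all tested genes were called in either direction, and the other 9 did not pass the test. Among the called rows, msd-2 and try-5 passed the filter through the group in which they were high, elt-2 RNAi for msd-2 and control for try-5. Their calls lend no support. The median log2 fold change of the sperm list was 1.17, and -0.18 with library size alone. gsp-3, a sperm phosphatase, had 68.2, 60.4 and 84.3 CPM in the elt-2 RNAi libraries, against 1.79, 5.01 and 3.99 CPM in the control libraries (log2 fold change 4.31, adjusted p = 0.00477). The summed sperm level was 822 to 1178 CPM in the elt-2 RNAi libraries, against 100 to 303 CPM in the control libraries, and control C, at 303 CPM, stayed with the control libraries here. Both rows of msd-1 had at most 3 counts in every library.

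Of 19 oocyte and eggshell genes 4 were called higher and 1 lower (egg-3), a share of 26.3% that is close to the 28.9% of all tested genes. The median of the list was 0.85, and -0.35 with library size alone. cpg-2, a chondroitin proteoglycan of the eggshell, had 1413, 871 and 1557 CPM in the elt-2 RNAi libraries, against 98.5, 107 and 145 CPM in the control libraries (log2 fold change 3.45, adjusted p = 0.0109). The summed level was 39996 to 43110 CPM in the elt-2 RNAi libraries, against 5940, 19493 and 30353 CPM in the control libraries. The list includes the yolk protein genes vit-2 to vit-6, which are transcribed in the intestine, so its sum is not a level of oocyte transcripts alone. vit-6 by itself had 17385, 13551 and 16674 CPM in the elt-2 RNAi libraries, against 2584, 9333 and 14576 CPM in the control libraries. vit-5 was among the genes called higher. The sperm list had 4 calls and the oocyte list 1 without elt-2 RNAi C, and the oocyte list had 2 without elt-2 RNAi A, elt-2 RNAi B or control A and 3 without control B.

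Markers of other tissues were called in part, to be read against the 28.9% of all tested genes, and their part in the levels of the heterochronic genes was not tested. Of 9 tested seam and epidermis genes, the tissue in which the timers act, 3 were called lower (sqt-3, wrt-2 and egl-18) and 1 higher (grd-10), with sums of 100.1 to 185.7 CPM in elt-2 RNAi and 78.0 to 260 CPM in control. sqt-3, a larval collagen gene, had 2.66, 2.56 and 4.06 CPM in the elt-2 RNAi libraries, against 69.1, 213 and 1.61 CPM in the control libraries, with control A and B above the other 4 libraries. ceh-16, a seam cell factor, had at most 1 count in any library. Intestine markers (6 of 10 called, 4 higher and 2 lower) summed to 1947 to 4116 CPM in elt-2 RNAi and 640 to 1639 CPM in control. Those called higher were elt-2, asp-1, act-5 and pept-1. Those called lower were lgmn-1 (log2 fold change -3.82, edgeR adjusted p = 0.0224) and elt-7 (-1.44, edgeR adjusted p = 0.0566). For both lgmn-1 and elt-7, every elt-2 RNAi library was below every control library, and how many of all genes were separated in this direction was not counted. Germline markers (2 of 12 called, 1 each way, a share under that of all genes) summed to 678 to 912 CPM in elt-2 RNAi and 154 to 443 CPM in control. Neuron markers (3 of 8 called, all lower) summed to 27.6 to 30.5 CPM in elt-2 RNAi and 35.6 to 54.3 CPM in control. Muscle markers (0 of 8 called by edgeR, 1 at an unadjusted p under 0.05, 2 by DESeq2) summed to 2409 to 3132 CPM in elt-2 RNAi and 458 to 2722 CPM in control.

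For each tested member, the 3 genes with the most similar pattern were found by Pearson's r of log2(CPM + 0.5) over the 6 libraries, which share depth and scaling, among the 3530 tested genes whose mean level reached 10 CPM. For lin-28 they were sec-16A.2 (0.970), dlk-1 (0.963) and K01A2.5 (0.955). For lin-29 they were alp-1 (0.984), ndub-5 (0.972) and ncx-1 (0.963), and for daf-12 they were ZK112.5 (0.937), mrpl-4 (0.926) and C14B9.10 (0.917). lin-41 followed a common pattern, with 479 genes at r over 0.95 and romo-1 (0.998), mrps-22 (0.998) and agt-1 (0.997) leading. daf-12 had none over 0.95. For hbl-1, which fell outside the rule and was looked up after its values were seen, T19B10.2 (0.994), the molting gene noah-2 (0.986) and F41E6.5 (0.982) were nearest, and 17 genes had r over 0.95.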

How the data were processed

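Poly-A RNA of 6 whole-worm cultures was sequenced by 3SEQ. The authors deposited raw counts of reads per gene, from uniquely mapped reads. The submitters' processing notes name Bowtie 0.12.7. The genome build, annotation, counting program and use of strand are not given in the sources used here. Of 19512 genes, 19081 (97.8%) were paired by sequence name with the WBcel235 annotation (Ensembl release 115), which gave symbols and coordinates.

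Groups came from the sample titles. Library totals ranged from 16568515 to 35047530 counts, and reads have no molecular identifiers. Genes were filtered with filterByExpr (11474 left) and compared by edgeR 4.0.16 (R 4.3.3) with TMM factors, the quasi-likelihood test (two-sided, group as the only term) and Benjamini-Hochberg adjustment over all tested genes. An adjusted p under 0.10 was a call. The SE was the absolute log2 fold change over the square root of F, and intervals are 95%. Single genes also had a two-sided exact permutation test on log2(CPM + 0.5). The study's methods call the 3 samples of each group biological replicates.

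The members and all lists were chosen with earlier results of these data known. Within a list, the 6 most abundant tested genes and the called genes could be named, and readouts in full. Alternatives were scaling by library size alone or after removal of the most abundant 3% of genes, DESeq2 1.42.0, dropping the filter or asking for 10 counts in each library, a replicate block, both B libraries left out, each library left out, and an adjusted p under 0.05. The test was checked on simulated data.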

Additional observations from a re-analysis of the deposited data

How the results depend on the processing

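Over all genes 3312 were called, and 6441 with library size alone, 1863 without both B libraries, 1587 at an adjusted p under 0.05 and 465 to 4290 without 1 library. The share of calls that were lower was 55.0%, and 93.2% with library size alone and 78.6% without the most abundant 3% of genes. The heterochronic count of 0 was 1 with library size alone (lin-28), with DESeq2 (lin-41) and with no filter (hbl-1), and 0 to 1 without 1 library. The 5 called partners were 15 with library size alone, 12 without the most abundant 3% of genes, 8 with at least 10 counts in every library, 1 without both B libraries, 2 at 0.05 and 0 to 6 without 1 library. The 8 called molting genes were 13 with no filter, 4 without both B libraries, 5 at 0.05 and 0 to 16 without 1 library. Adult cuticle calls (0) were 1 with no filter and 0 to 3 without 1 library. Sperm calls (7) were 4 without both B libraries and 4 to 10 without 1 library. Oocyte and eggshell calls (5) were 9 with library size alone, 8 with DESeq2, 2 with no filter, without both B libraries or at 0.05, and 1 to 6 without 1 library. The log2 fold change of elt-2 lay between 2.80 and 5.24 without 1 library.

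The sign turned with library size alone for lin-41 (-0.30), lin-29 (-1.10), daf-12 (-1.15), egg-1 (-0.35) and ins-33 (-0.081). It turned for daf-12 without the most abundant 3% of genes (-0.18), without elt-2 RNAi C (-0.063) and without control A (-0.010), for lin-28 without both B libraries (0.11) and without control B (0.16), and for ins-33 without both B libraries (-0.011). Without 1 library daf-12 ranged from -0.063 to 0.70 and lin-28 from -0.55 to 0.16. The cause was not tested.

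No likeness by letter was seen. Deviations from the group means correlated at -0.19, -0.54 and -0.03 for the same letter (A, B and C), and at -0.19 to 0.34 for different letters. Such deviations cancel out within a group, so these values cannot show whether cultures of the same letter were handled together. With a replicate block 1219 genes were called, with 1 partner, 3 molting genes, 2 oocyte genes and 0 heterochronic genes. Of the 8 members, 4 did not pass the filter on low counts. For lin-14, lin-42 and lin-46, which had few counts in every library, only large differences could be read. hbl-1 had 1802 and 320 counts in control A and B and few in the other libraries.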
